A study of Homo sapiens with 6 samples.

Results

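The set described here holds 39 genes of DNA replication and S phase, the stage of the cell cycle in which chromosomes are copied. The genes are those of origin licensing, the replicative helicase, the polymerases, the sliding clamp, nucleotide supply and control of S-phase entry. They were read from 81 probe sets whose only gene symbol in the platform annotation is one of the 39, out of 54675 probe sets on the array. All 39 genes had at least 1 probe set bright enough to be tested, and 14243 genes were tested in all. Total RNA was measured on Affymetrix arrays, which report 1 signal per probe set, in M5 cells and SW480 cells. SW480 is an established line from a human colorectal cancer. M5 was derived from SW480 by selection in vivo and, per the labels, spreads to the liver more strongly. Each group has 3 arrays, M5 replicates 1, 2 and 3 and SW480 replicates 1, 2 and 3, called biological replicates in the labels. Both were grown in RPMI medium with serum and antibiotics, and the labels name no drug or other agent. M5 is a single selected population, so selection and any other event in its history cannot be told apart.

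A chromosome is copied from origins that are loaded with the MCM helicase in G1 by ORC, CDC6 and CDT1. Cyclin E with CDK2, and another kinase, then recruit CDC45 and GINS to the loaded helicase, the forks open, and polymerases held on DNA by the PCNA ring copy both strands. Most of these genes are switched on together at the G1/S boundary by E2F transcription factors once the retinoblastoma protein lets go of them, which is why their transcripts are used as a measure of cycling cells in tumours. In bulk RNA, more cells in S phase and more RNA per cell cannot be told apart.

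Promoter sequences are shown for 5 members because the set is known for its E2F sites. Of the 5, E2F1, RFC2 and CDT1 had higher signals on every M5 array, FEN1 lower ones, and MCM6 overlapped between the groups. The 5 sequences are examples, and that of the lowest member, CDC25A (-0.56), is not among them. Each runs 5′ to 3′ along the gene, from 250 bases before the start to 50 bases after it, as given by RefSeq for GRCh38.p14. Capitals mark the words TTTGGCG and TTCCCGC, which are parts of E2F sites, on either strand. The words can overlap, as in the longer run of capitals of CDT1. They were chosen after some promoters had been seen. The intervals are chr20:33686336-33686635 (minus strand) for E2F1, chr16:88803539-88803838 (plus strand) for CDT1, chr2:135876394-135876693 (minus strand) for MCM6, chr7:74254350-74254649 (minus strand) for RFC2 and chr11:61792661-61792960 (plus strand) for FEN1.
E2F1: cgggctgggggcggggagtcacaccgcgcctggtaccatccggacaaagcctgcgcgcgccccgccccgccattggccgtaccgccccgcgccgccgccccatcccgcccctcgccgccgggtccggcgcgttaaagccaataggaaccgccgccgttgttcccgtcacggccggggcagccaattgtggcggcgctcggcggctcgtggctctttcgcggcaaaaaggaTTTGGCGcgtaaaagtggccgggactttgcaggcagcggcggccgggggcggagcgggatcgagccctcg
CDT1: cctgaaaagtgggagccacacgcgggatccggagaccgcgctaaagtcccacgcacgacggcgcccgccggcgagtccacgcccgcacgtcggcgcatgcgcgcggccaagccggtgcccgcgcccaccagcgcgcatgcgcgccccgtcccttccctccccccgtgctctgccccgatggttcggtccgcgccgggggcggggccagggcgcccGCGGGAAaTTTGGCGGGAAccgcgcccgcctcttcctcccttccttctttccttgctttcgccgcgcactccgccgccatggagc
MCM6: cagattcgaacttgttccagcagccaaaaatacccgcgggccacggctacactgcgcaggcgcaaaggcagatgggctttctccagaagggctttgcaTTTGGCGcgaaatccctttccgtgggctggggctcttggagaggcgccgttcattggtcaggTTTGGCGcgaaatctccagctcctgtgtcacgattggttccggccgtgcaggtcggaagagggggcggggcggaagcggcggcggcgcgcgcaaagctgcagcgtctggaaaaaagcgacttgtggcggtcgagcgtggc
RFC2: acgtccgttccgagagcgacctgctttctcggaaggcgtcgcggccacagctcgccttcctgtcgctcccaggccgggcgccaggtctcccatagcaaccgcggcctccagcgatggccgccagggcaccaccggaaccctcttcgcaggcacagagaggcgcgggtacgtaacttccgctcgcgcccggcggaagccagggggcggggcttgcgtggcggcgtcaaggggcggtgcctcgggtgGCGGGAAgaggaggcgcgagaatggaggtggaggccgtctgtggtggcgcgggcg
FEN1: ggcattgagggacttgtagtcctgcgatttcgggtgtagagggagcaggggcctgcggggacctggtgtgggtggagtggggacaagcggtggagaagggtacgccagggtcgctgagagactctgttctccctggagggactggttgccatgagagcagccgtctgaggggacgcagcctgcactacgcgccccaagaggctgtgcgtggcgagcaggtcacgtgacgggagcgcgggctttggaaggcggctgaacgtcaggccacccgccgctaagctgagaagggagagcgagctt

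The E2F1 word starts 20 bases before the gene's start, in the E2F1 gene's own promoter. The CDT1 words start 35 and 27 bases before the start, those of MCM6 152 and 90 bases before it, and that of RFC2 5 bases before it. FEN1 has neither word in this window. RefSeq promoters were at hand for 34 of the 39 members, and MCM4, MCM5, GINS4, CCNE2 and CDK2 had none. At least 1 promoter held one of these words for 24 of the 34 genes, or 70.6%, against 13.1% of 15843 protein-coding genes and 9.86% of all 27305 genes with a promoter. Among members with every M5 array above every SW480 array, 5 of the 7 with a promoter held a word (71.4%), and POLD1 and CHEK1 held none. The CCAAT box, which binds NF-Y, was found on either strand for 64.7% of the members, against 42.1% of protein-coding genes. The GC box GGGCGG, which binds Sp1, was found for 76.5% of the members, against 64.3% of protein-coding genes. The median log2 fold change was 0.12 over the 24 members with an E2F-type word and 0.06 over the 10 without, with ranges of -0.56 to 1.09 and -0.44 to 0.51, and that difference was not tested. A match is a string of letters and does not show that a factor binds there.

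The arrays differed in brightness. Their 2% trimmed mean signals were 27.24, 65.89 and 67.72 on M5 replicates 1, 2 and 3 and 21.12, 53.78 and 87.09 on SW480 replicates 1, 2 and 3, so all values below are quantile normalised signals, which have no unit. M5 replicates 2 and 3 had a median absolute deviation of 0.113 (log2) between them over 3823 bright probe sets, against 0.297 to 0.504 for the other pairs of arrays. For the 45 spike-in controls it was 0.107 between the same 2 arrays and 0.24 to 1.99 for the other pairs. The next lowest spike-in values, 0.24 and 0.268, were those of SW480 replicate 3 with M5 replicates 3 and 2. The cause of these differences was not tested. Means and SDs below take the average of M5 replicates 2 and 3 as a single M5 sample because the 2 arrays are so alike. That gives n = 2, while the model keeps all 6 arrays as labelled. M5 replicate 1 and SW480 replicate 1, the dimmest arrays, are called the dimmer pair. Their median absolute deviation over the bright probe sets was 0.297, the lowest after that of M5 replicates 2 and 3. The 3′ to 5′ signal ratio of the GAPDH control was 1.03 to 1.08 on M5 arrays and 1.04 to 1.15 on SW480 arrays, and that of ACTB 1.92 to 2.19 and 1.64 to 2.11. Of 10 colorectal epithelial markers, 6 lay above the median signal on all arrays, with CDX2, VIL1, LGALS4 and CDH17 below it on at least 1. Their summed signal was 11352 to 12200 on M5 arrays and 9133 to 12901 on SW480 arrays. None of the leukocyte or endothelial markers lay above the median on all arrays, with sums of 19.2 to 50 and 15 to 28.6 on M5 arrays and 42.5 to 48 and 12.9 to 31.3 on SW480 arrays. Of the fibroblast markers 3 of 6 and of the hepatocyte markers 1 of 6 did, with sums of 155 to 202 and 86.2 to 549 on M5 arrays and 210 to 351 and 74.2 to 281 on SW480 arrays. Both groups are cultured lines, and whether any cells of these other types were present, or had a part in the replication results, was not tested.

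The comparison asks whether the replication programme differs between the liver-metastatic subpopulation and its parent line. None of the 39 members passed the threshold in either direction. In limma, with Benjamini-Hochberg adjustment over all 14243 genes, 0 members were higher in M5, where 0.0983% of all genes were, and 0 were lower, where 0.0913% were. The lowest adjusted p of a member was 0.247, for RFC2, a subunit of the clamp loader. At an unadjusted p under 0.05, limma gave 5 members higher (CDC45, RFC2, TK1, CCNE2 and E2F1), against 5.42% of all genes, and 1 lower (FEN1), against 6.14%. With each gene's own variance in place of limma's moderated one, the counts of members were 7 and 0 at that unadjusted level, against 4.3% and 4.66% of all genes. After adjustment they were 0 and 0, and of all 14243 genes 0 were called in either direction. With M5 replicates 2 and 3 averaged before the limma fit, 3 members were higher and 0 lower unadjusted, against 2.33% and 3.6% of all genes. Adjusted, 0 and 0 were called, against 0.00703% and 0.0211% of all genes, and the lowest adjusted p of a member was 0.784. By the arrays themselves, 8 members had every M5 array above every SW480 array (CDT1, CDC45, POLD1, RFC2, TK1, CCNE2, E2F1 and CHEK1), which is 20.5% of members against 7.66% of all genes. Only FEN1 had every M5 array below every SW480 array, 2.56% of members against 8.42% of all genes. These counts depend on how the arrays are scaled: with each array only centred on its median, 1 member lay above and 0 below, against 3.58% and 5.53% of all genes, and with no scaling 0 and 0, against 2.1% and 1.12%. Over all genes limma called 0.0352% higher and 0.0282% lower after centring and 0.0422% and 0.0211% with no scaling, and 0 members in either. With the probe sets of a gene averaged, 5 members lay above and 1 below, against 7.67% and 7.92% of all genes. With M5 replicates 2 and 3 averaged, 9 lay above and 1 below, against 9.29% and 11.9%. Without M5 replicate 1, 13 members lay above and 3 below, against 19.5% and 18.8% of all genes. Without SW480 replicate 1, 8 members lay above, against 15.7% of all genes. Members lying below numbered 4 without SW480 replicate 1 (17.6% of all genes), 3 without SW480 replicate 3 (12.6%) and 2 without M5 replicate 2 (11.4%).

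**Figure D1:**
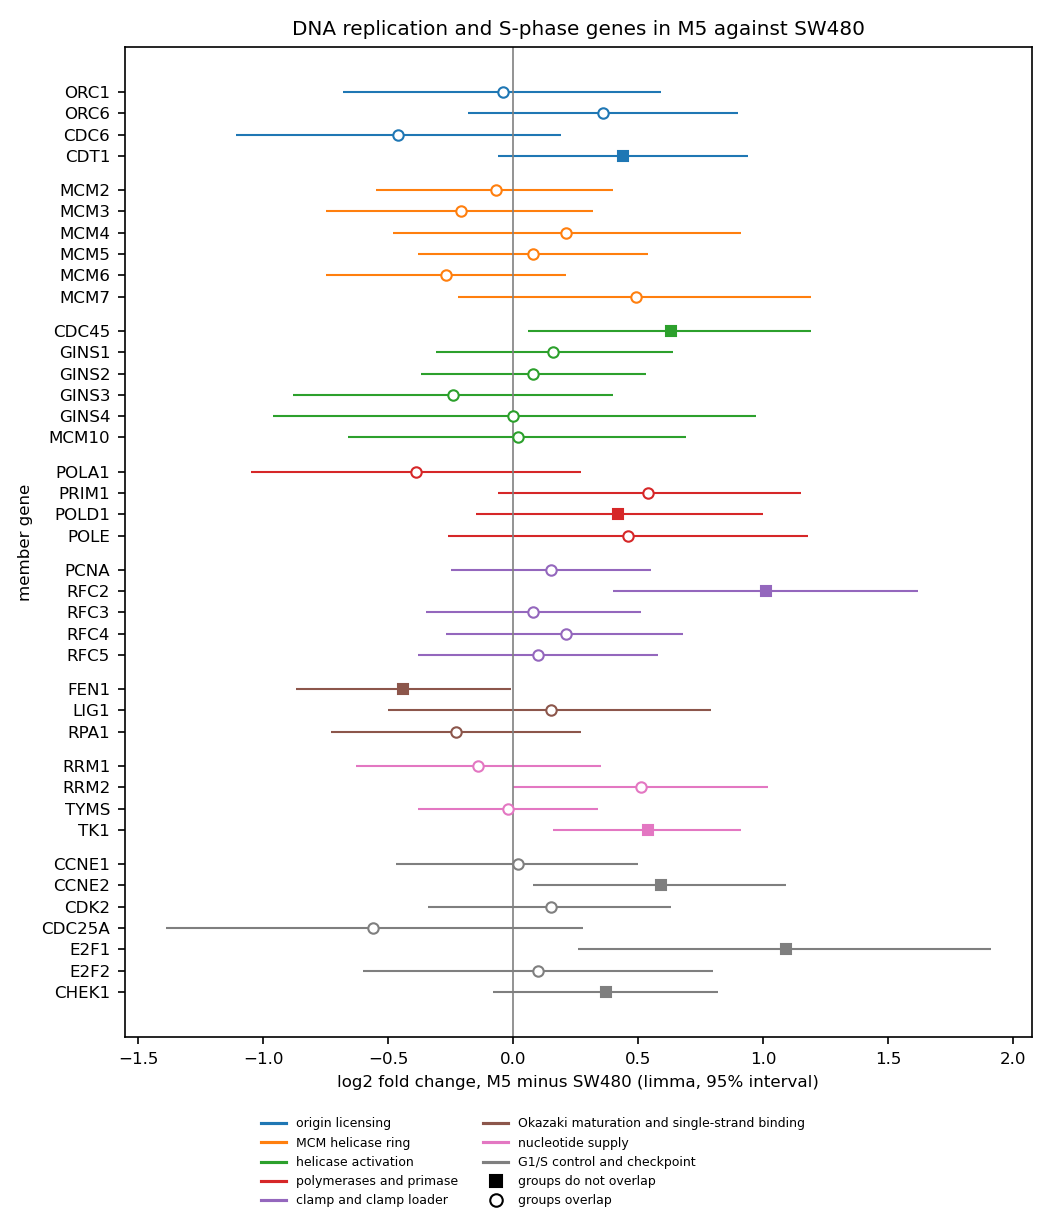
Log2 fold change of each of the 39 members, M5 minus SW480, from limma over 6 arrays (x axis, log2 scale), with its 95% interval, by role. Filled squares mark the 9 members whose groups did not overlap; E2F1 (1.09) and RFC2 (1.01) lie farthest to the right and CDC25A (-0.56) farthest to the left.

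The median log2 fold change of the 39 members was 0.10, and 27 of them (69.2%) lay above 0, against a median of -0.01 and 49.2% above 0 over all genes tested. Single SW480 arrays moved that median both ways. On SW480 replicate 1 the median member lay 0.32 below its own mean over the 6 arrays (log2 scale), with 32 of 39 members below that mean. For 20 of the 39 members it was the lowest of the 6 arrays, against 21% of all genes. The corresponding medians on M5 replicates 1, 2 and 3 were 0.02, 0.10 and 0.11, and those on SW480 replicates 2 and 3 were 0.19 and -0.05. SW480 replicate 2 was thus the array with the highest median, and for 17 members it was the highest of all arrays. Without SW480 replicate 1 the members' median was -0.01, with 19 of 39 above 0, and without SW480 replicate 2 it was 0.23. The spread among the SW480 arrays exceeded the distance between the groups for the set as a whole. On the dimmer pair the median difference was 0.27, with 29 members above 0, and on the other 4 arrays it was 0.07, with 23 above 0. The sign was the same in both sets of arrays for 21 of the 39. The control probe set for the 5′ end of 18S ribosomal RNA also divided the arrays, with deposited signals of 3581.8 on M5 replicate 1 and 2823.9 and 4163.4 on SW480 replicates 1 and 2, against 208.6 and 234.1 on M5 replicates 2 and 3 and 96.3 on SW480 replicate 3. Within the 3 arrays high and the 3 low for it, the members' medians were 0.01 and 0.11.

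**Figure D2:**
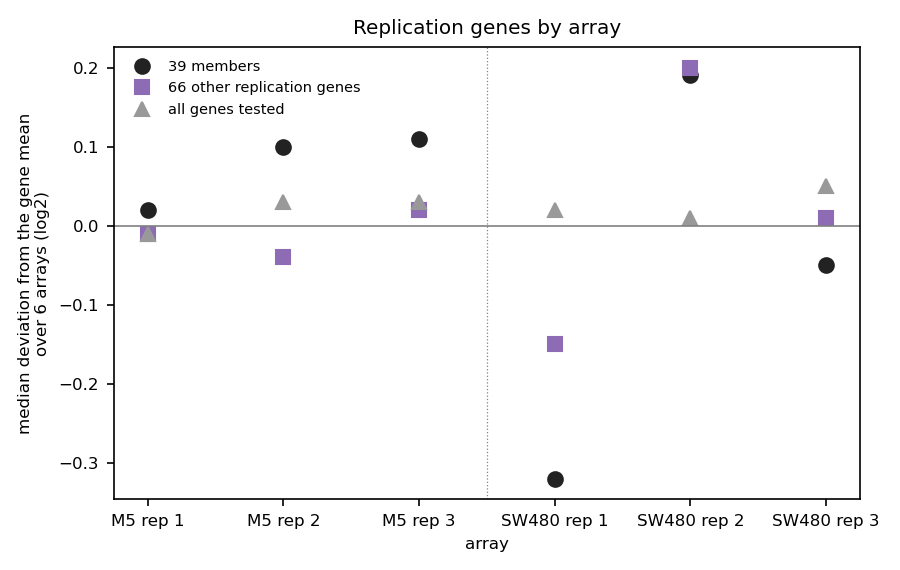
Median over genes of the deviation from each gene's mean over 6 arrays (y axis, log2 scale), by array, for the 39 members, 66 other replication genes and all genes tested. For the members SW480 replicate 1 lies lowest (-0.32) and SW480 replicate 2 highest (0.19), with the 3 M5 arrays (0.02, 0.10 and 0.11) between them.

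Entry into S phase is set by cyclin E with its partner CDK2, by E2F transcription factors, and by CDC25A, the phosphatase that activates CDK2. Of the 7 genes of this group, 6 lay above 0 and none passed the threshold. E2F1, which switches on replication genes and its own promoter, had signals of 46.3, 47.7 and 44.8 on M5 replicates 1 to 3, against 20.1, 32.5 and 13.8 on SW480 replicates 1 to 3. All M5 arrays lay above all SW480 arrays, and the M5 arrays were close together, though M5 replicates 2 and 3 are the near-identical pair. The log2 fold change of E2F1 was 1.09 (limma adjusted p = 0.33, SE 0.37), a fold of 2.12 with a 95% interval on the log2 scale of 0.26 to 1.91. That interval counts M5 replicates 2 and 3 as separate samples, and with them averaged the SE was 0.46 (limma adjusted p = 0.836). E2F1 signals were low, and its value was 1.13 with 0.425 added before the log2 in place of 1.7, and 0.93 with 6.8. Its other probe set did not separate the groups, with 16.3, 35.7 and 43.1 on M5 arrays against 34.1, 28.8 and 16.9 on SW480 arrays and a log2 fold change of 0.19 (SE 0.44). Without M5 replicate 1 that other probe set became the brighter, and the value for the gene was 0.60. E2F2, a close relative, stood at 0.10 (SE 0.32).

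CCNE2, which encodes cyclin E2, had signals of 218, 201 and 199 on M5 arrays, against 108, 156 and 151 on SW480 arrays. Its log2 fold change was 0.59 (limma adjusted p = 0.384, SE 0.23). The groups did not overlap, and a further probe set gave 72.2, 88.2 and 79.9 on M5 arrays against 49.5, 53 and 53.4 on SW480 arrays, also with no overlap and a log2 fold change of 0.60. CCNE1, which encodes the related cyclin E1, was level, at 156, 141 and 142 on M5 arrays and 160, 129 and 145 on SW480 arrays, with a log2 fold change of 0.02 and a 95% interval of -0.47 to 0.50. The difference between both cyclins was not tested. CHEK1, the checkpoint kinase that restrains forks and cell division when replication stalls, had signals of 225, 215 and 211 on M5 arrays, against 176, 176 and 153 on SW480 arrays. Its 4 probe sets stood between 0.28 and 0.44, all above 0, and the log2 fold change of the brightest was 0.37 (limma adjusted p = 0.527, SE 0.20). The groups overlapped for all but the brightest, and the dimmest (0.40, SE 0.70) had signals of only 2.82 to 18.4. The difference of CHEK1 was 0.35 on the dimmer pair and 0.37 on the other arrays. CDK2 and CDC25A had log2 fold changes of 0.15 (SE 0.22) and -0.56 (SE 0.38), and the probe sets of CDC25A ran from -0.94 to 0.91.

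**Figure D3:**
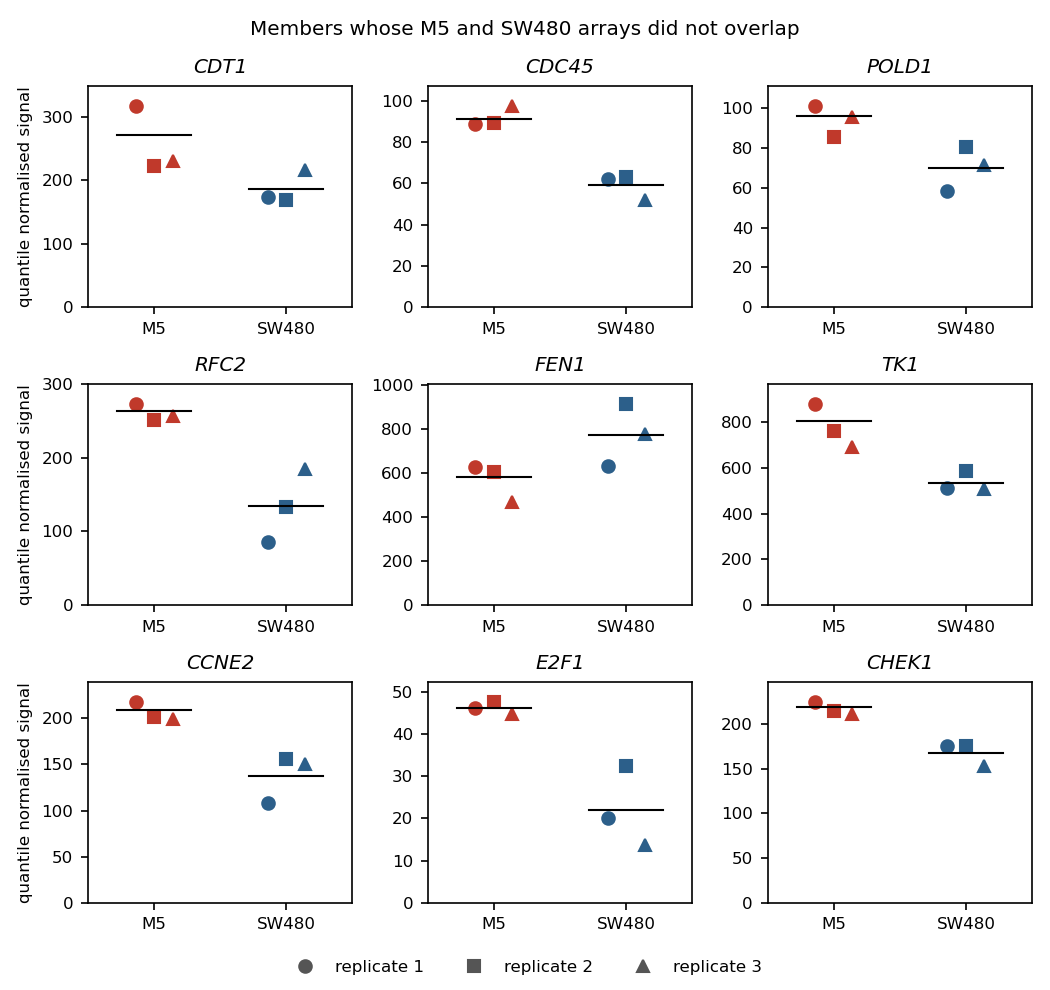
Quantile normalised signal (y axis, linear, from 0) of the 9 members whose groups did not overlap, in M5 (left) and SW480 (right), 1 point per array, with a bar at the group mean (M5 replicates 2 and 3 counted as 1 sample). The M5 arrays lie higher for 8 genes and lower for FEN1, where 629 on M5 replicate 1 nearly meets 633 on SW480 replicate 1.

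Origin licensing loads the helicase before S phase. Of its 4 genes, 2 lay above 0 and 2 below. CDT1, which brings the helicase to the origin and is destroyed once S phase begins, had signals of 317, 222 and 230 on M5 arrays, against 174, 169 and 217 on SW480 arrays. The groups did not overlap, but 222 and 217 were close, and the log2 fold change was 0.44 (limma adjusted p = 0.487, SE 0.23). Its probe set and that of ORC6 carry the array maker's x suffix, given where some probes also match other sequences. A further CDT1 probe set overlapped between the groups (0.26, SE 0.36). Without M5 replicate 1 the CDT1 value was 0.28. CDC6, the other loading factor, had 137, 101 and 99 on M5 arrays against 117, 233 and 132 on SW480 arrays and a log2 fold change of -0.46 (limma adjusted p = 0.589, SE 0.30). The groups overlapped, SW480 replicate 2 stood well above the rest, and without it the value was -0.16. The other CDC6 probe set stood at 0.08 (SE 0.29), and the mean of both was -0.19. ORC1 and ORC6, subunits of the origin recognition complex, had values of -0.04 (SE 0.29) and 0.36 (SE 0.25).

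The 6 subunits of the MCM ring, which unwinds DNA at the fork, showed no common direction: MCM4, MCM5 and MCM7 lay above 0 and MCM2, MCM3 and MCM6 below. Their median log2 fold change was 0.00, and for none of the 6 were the groups apart. MCM7 stood highest, with 328, 531 and 577 on M5 arrays against 202, 502 and 359 on SW480 arrays and a log2 fold change of 0.49 (limma adjusted p = 0.6, SE 0.32). That value was 0.13 without SW480 replicate 1 and 0.79 without SW480 replicate 2. MCM6 stood lowest, with 754, 729 and 720 on M5 arrays against 644, 1216 and 896 on SW480 arrays, a log2 fold change of -0.27 (limma adjusted p = 0.67, SE 0.22). For MCM6 the SW480 arrays spread on both sides of the M5 arrays, which lay close together. A dimmer MCM6 probe set stood at 0.93 (SE 0.69), so the mean over both probe sets was above 0, at 0.33. The MCM6 value was -0.05 without SW480 replicate 2 and -0.51 without SW480 replicate 1. MCM2, MCM3, MCM4 and MCM5 had log2 fold changes of -0.07, -0.21, 0.21 and 0.08.

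The ring becomes an active helicase when CDC45 and the 4 GINS subunits join it, with MCM10 needed for the step. CDC45 had signals of 89, 89.3 and 97.5 on M5 arrays, against 62.3, 63.1 and 51.8 on SW480 arrays. No SW480 array reached the lowest M5 array, and the log2 fold change was 0.63 (limma adjusted p = 0.396, SE 0.26). CDC45 stood at 0.50 on the dimmer pair and 0.69 on the other arrays, so its difference was of similar size in both. Over all arrays together its partners stood closer to 0. GINS1, GINS2, GINS3 and GINS4 had log2 fold changes of 0.16, 0.08, -0.24 and 0.00, and MCM10 had 0.02. On the dimmer pair the GINS genes stood, in that order, at 0.58, -0.03, -0.03 and 0.72, so GINS1 and GINS4 exceeded CDC45 there. On the other arrays the GINS genes stood at -0.05, 0.14, -0.35 and -0.35. The GINS4 value had a 95% interval of -0.96 to 0.97 (SE 0.44), too wide to show that GINS4 was level. The probe sets of GINS4 ran from -0.78 to 0.09. GINS3 signals were 70.8, 79 and 48.7 on M5 arrays against 72.5, 92.2 and 68.3 on SW480 arrays, with overlap between the groups (limma adjusted p = 0.8, SE 0.29). The GINS3 value was -0.04 without M5 replicate 3 and -0.11 without SW480 replicate 2. The difference between CDC45 and the GINS genes was not tested. MCM10 ran in opposite ways on the 2 sets of arrays, at 0.94 on the dimmer pair and -0.45 on the others, and its 3 probe sets stood between -0.42 and 0.02.

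Among the polymerases, PRIM1, which encodes the primase subunit that lays the first RNA bases, had signals of 358, 680 and 707 on M5 arrays, against 297, 424 and 441 on SW480 arrays. M5 replicate 1 lay among the SW480 arrays while M5 replicates 2 and 3 lay far above them. The log2 fold change of PRIM1 was 0.54 (limma adjusted p = 0.482, SE 0.27), and it was 0.86 without M5 replicate 1. POLD1, the catalytic subunit of polymerase delta, which copies the lagging strand, had 101, 85.4 and 95.4 on M5 arrays, against 58.5, 80.3 and 71.4 on SW480 arrays. The groups were apart by a narrow margin (log2 fold change 0.42, limma adjusted p = 0.569, SE 0.26). POLE, the catalytic subunit of the leading-strand polymerase epsilon, had 52.9, 69.6 and 94.6 on M5 arrays against 53.9, 63.8 and 37.7 on SW480 arrays, with overlap (0.46, limma adjusted p = 0.625, SE 0.33). Without M5 replicate 3, or without SW480 replicate 3, POLE stood at 0.25. POLA1, which extends the primer, was at -0.39 (SE 0.30).

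PCNA, the ring that holds polymerases on DNA, and the RFC subunits that load it all lay above 0 over the 6 arrays, and none passed the threshold. Without SW480 replicate 1, 2 of the 5 lay above 0 and their median was -0.02, against 0.15 over the 6 arrays. PCNA signals were 1363, 1702 and 1721 on M5 arrays, against 1129, 1705 and 1519 on SW480 arrays, a mean of 1538 ± 246 (SD, n = 2) in M5 and 1451 ± 294 (SD, n = 3) in SW480. The groups overlapped, with a log2 fold change of 0.15 (limma adjusted p = 0.803, SE 0.18) and a 95% interval of -0.25 to 0.55, and the value was -0.02 without SW480 replicate 1. RFC2 had the highest value of its complex. Its signals were 273, 251 and 256 on M5 arrays, against 85.5, 133 and 185 on SW480 arrays, a mean of 263 ± 13.8 (SD, n = 2) in M5 and 134 ± 49.5 (SD, n = 3) in SW480. The M5 arrays lay close together and above the spread of the SW480 arrays. The log2 fold change of RFC2 was 1.01 (limma adjusted p = 0.247, SE 0.28), a fold of 2.02 with a 95% interval on the log2 scale of 0.40 to 1.62. That interval too counts M5 replicates 2 and 3 as separate samples. With them averaged RFC2 was at 1.03 (limma adjusted p = 0.784, SE 0.35). A further probe set gave 149, 187 and 207 on M5 arrays against 86.4, 133 and 152 on SW480 arrays and a log2 fold change of 0.57 (SE 0.27), with 149 and 152 just overlapping. RFC2 stood at 1.65 on the dimmer pair and 0.69 on the other arrays, and limma with array weights put it past the threshold (0.79, SE 0.22, adjusted p = 0.0402), in a fit that called 3.81% of all genes higher and 5.05% lower. RFC4, the next in size, had 497, 661 and 607 on M5 arrays against 420, 671 and 460 on SW480 arrays, with overlap (0.21, limma adjusted p = 0.759, SE 0.22). RFC4 was at 0.07 without SW480 replicate 1 and 0.41 without SW480 replicate 2. RFC3 and RFC5 stood at 0.08 and 0.10, and a dimmer RFC3 probe set at -0.96 (SE 0.67). Whether RFC2 differed from the other loader subunits was not tested.

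FEN1, the nuclease that trims the flaps of Okazaki fragments, was the only member with all M5 arrays below all SW480 arrays. Its signals were 629, 606 and 471 on M5 arrays, against 633, 916 and 778 on SW480 arrays. The dimmer arrays were level with each other, at 629 and 633, and the separation came from the other arrays. The log2 fold change of FEN1 was -0.44 (limma adjusted p = 0.425, SE 0.20), and a further probe set stood at -0.27 (SE 0.22). RPA1, which coats single-stranded DNA, had 552, 414 and 440 on M5 arrays against 497, 749 and 437 on SW480 arrays. The groups overlapped (-0.23, limma adjusted p = 0.743, SE 0.23), and SW480 replicate 2 stood apart from the rest. Without that array RPA1 was at -0.00, and without SW480 replicate 3 at -0.40. LIG1, the ligase that seals the fragments, was at 0.15 (SE 0.29).

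Nucleotide supply rests on thymidine kinase (TK1), thymidylate synthase (TYMS) and ribonucleotide reductase (RRM1 and RRM2). TK1 had signals of 879, 761 and 692 on M5 arrays, against 512, 584 and 505 on SW480 arrays, a mean of 803 ± 108 (SD, n = 2) in M5 and 534 ± 43.7 (SD, n = 3) in SW480. The groups did not overlap, with a log2 fold change of 0.54 (limma adjusted p = 0.313, SE 0.17) and a fold of 1.45. A further TK1 probe set gave 0.61 (SE 0.25) with overlap. RRM2, the subunit whose level limits the enzyme in S phase, had 1591, 2347 and 2386 on M5 arrays against 1021, 1780 and 1699 on SW480 arrays (0.51, limma adjusted p = 0.431, SE 0.23). Its groups overlapped, and the value was 0.25 without SW480 replicate 1. The other RRM2 probe set pointed the other way, with 1866, 1032 and 977 on M5 arrays against 1616, 1601 and 1649 on SW480 arrays and a log2 fold change of -0.39 (SE 0.22). RRM1 and TYMS showed the reverse arrangement: their brightest probe sets stood at -0.14 and -0.02, while a dimmer probe set of each had all M5 arrays above all SW480 arrays. For RRM1 that probe set gave 239, 337 and 379 on M5 arrays against 208, 201 and 195 on SW480 arrays (0.63, limma adjusted p = 0.402, SE 0.22). For TYMS it gave 526, 511 and 528 on M5 arrays against 293, 449 and 381 on SW480 arrays (0.50, limma adjusted p = 0.446, SE 0.20). Both of these p-values were adjusted over all 32768 probe sets.

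Probe sets of the same gene thus often differed. Of the 81 probe sets 76 were bright enough to be tested and 5 were not. Among the 24 members with more than 1 tested probe set, all probe sets lay above 0 for 9 (among them CDT1, MCM7, RFC2, TK1, CCNE2, E2F1 and CHEK1) and below 0 for 2, FEN1 and RPA1. For the other 13 they lay on both sides of 0. Over the 76 probe sets limma called 0 higher and 0 lower, against 0.0397% and 0.0336% of all probe sets. At an unadjusted p under 0.05 it gave 9 higher and 1 lower, against 4.8% and 5.46% of all probe sets. The groups were apart for 11 probe sets with M5 higher (14.5%, against 7.19% of all probe sets) and 1 with M5 lower (1.32%, against 7.93%).

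**Figure D4:**
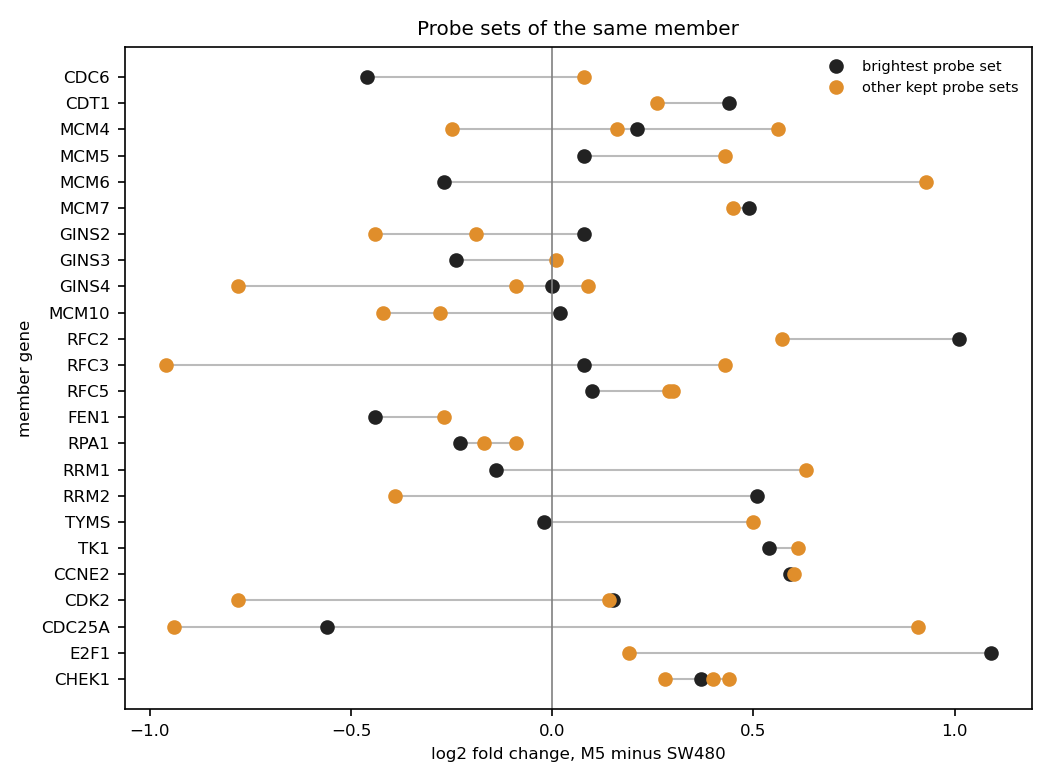
Log2 fold change, M5 minus SW480 (x axis), of every tested probe set of the 24 members that have more than 1, with the brightest probe set in black. TK1 (0.54 and 0.61) and CCNE2 (0.59 and 0.60) hold together, while RRM2 (0.51 and -0.39) and RRM1 (-0.14 and 0.63) point both ways.

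A list of 67 other replication genes was set beside the members, of which 66 were tested. Their median log2 fold change was -0.03, with 31 above 0 and 35 below, and limma called 0 higher and 0 lower. At an unadjusted p under 0.05 limma gave 0 higher and 4 lower, against 5.42% and 6.14% of all genes. The 4, named here after their values were seen, were TOP1, which encodes topoisomerase I (-0.99, SE 0.32), RBL2, a relative of the retinoblastoma gene (-0.94, SE 0.35), E2F5, a repressive E2F (-0.90, SE 0.40), and DSCC1, a subunit of an alternative clamp loader (-0.59, SE 0.26), with adjusted p of 0.319 to 0.425. The groups overlapped for all 4, and on the dimmer pair their differences were -0.05, 0.08, 0.21 and 0.12. The groups were apart for 3 genes with M5 higher, 4.55% against 7.66% of all genes, and 4 with M5 lower, 6.06% against 8.42%. The higher ones were CHAF1B, a histone chaperone subunit (log2 fold change 0.61, SE 0.29), POLE2, an accessory subunit of polymerase epsilon (0.36, SE 0.23), and RRM2B, the p53-inducible reductase subunit (0.36, SE 0.21). The lower ones were the E2F family genes E2F3 (-0.46, SE 0.25) and E2F6 (-0.24, SE 0.22), MCM8, an MCM relative that works in recombination (-0.39, SE 0.29), and the histone chaperone gene ASF1A (-0.30, SE 0.22). E2F3 signals were 87.3, 84.9 and 81.8 on M5 arrays, against 96, 143 and 116 on SW480 arrays, the opposite arrangement to E2F1. Cyclin A2, whose gene CCNA2 marks S and G2 cells, had 251, 226 and 235 on M5 arrays and 180, 263 and 196 on SW480 arrays (0.18, SE 0.22). E2F8, a repressor of the family, was at 0.08 (SE 0.27).

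Leaving out the dimmer pair changed the calls of 3 members. In limma on the other 4 arrays PRIM1 (0.68, SE 0.14, adjusted p = 0.0174) and RRM2 (0.44, SE 0.11, adjusted p = 0.0404) were called higher and FEN1 (-0.66, SE 0.17, adjusted p = 0.0384) lower. The RRM2 call rests on its brightest probe set, and the other RRM2 probe set differed by -0.69 on these arrays. Those 2 and 1 of 39 members stand beside 5.03% of all genes called higher and 6.31% called lower in the same fit, and neither count exceeds what that share of 39 genes gives by as much as 1 gene. M5 replicates 2 and 3, the near-identical pair, are then the whole M5 group, and with them averaged 0 members were called in either direction, against 0.567% of all genes higher and 0.78% lower. On the other 4 arrays 14 members lay above and 8 below, against 29% and 28.1% of all genes, and with the averaging 17 and 12, against 35.1% and 39.6%. E2F1, RFC2, CDC45, TK1 and CCNE2 were not called in either of those fits.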

How the data were processed

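Total RNA of 3 M5 and 3 SW480 arrays was analysed from the deposited table, which holds probe set intensity values on a linear scale. They were made with GCOS 1.4, per the submitters' processing notes. No scaling target, other setting or detection call is given in the sources used here. The arrays' 2% trimmed means differed by up to 4.12 times, so signals were quantile normalised and taken as log2(signal + 1.7), the 20th percentile of the deposited intensity values. This understates the fold of dim probe sets. The 40% of 54613 non-control probe sets with the lowest mean were left out, which left 32768. M5 was compared with SW480 in limma 3.58.1 (R 4.3.3; lmFit, eBayes with an intensity trend, two-sided, Benjamini-Hochberg, threshold 0.05). A gene is its brightest tested probe set with 1 symbol in the 2016 platform annotation, and p was adjusted over 14243 genes. Of 41091 probe sets with 1 symbol, 41037 matched a RefSeq gene ID (GRCh38.p14) and 0 symbols changed.

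Array by array values are given by rule: the 2 members with the largest absolute log2 fold change in each of 8 roles, those whose groups do not overlap, and PCNA, E2F1 and CHEK1. Other replication genes are named where called or not overlapping, with CCNA2 and E2F8. Further members' array values (CCNE1, and second probe sets) were chosen after their values were seen. The members and lists were chosen with earlier results of these data known. The fits were run on simulated data with independent arrays, which held no near-identical pair like M5 replicates 2 and 3. With 3 arrays a group, the number of arrays limits the precision, and p-values measure the spread between these arrays. Alternatives changed the scaling, pseudocount, filter, variance model, test, probe set, blocks and arrays used. Figures were drawn with matplotlib 3.10.9.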

Additional observations from a re-analysis of the deposited data

How the results depend on the processing

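Over 6 arrays 0 members, 0 of their probe sets and 0 other replication genes were called in either direction. Without the dimmer pair, 2 members and 3 probe sets were higher and 1 member and 4 probe sets lower, with 2 other genes higher (TFDP2, CCND1) and 4 lower (TOP1, DSCC1, E2F5, RBL2). That fit called 5.03% of all genes higher and 6.31% lower. With array weights, 1 member and 1 probe set were higher, 1 probe set and 4 other genes lower, the same 4 as without the dimmer pair. The weighted fit called 3.81% of all genes higher and 5.05% lower. No share over all probe sets was taken for these fits. Leaving out 1 array in turn gave 0 to 0 members and probe sets in each direction and 0 to 1 other genes lower: TOP1, named like the other genes above after its values were seen, was called without M5 replicate 1 (-1.44, adjusted p = 0.0131), against -0.99 over 6 arrays. Without that array 0.717% of all genes were called higher and 1.05% lower. Members with all M5 arrays above numbered 8 over 6 arrays, 0 unscaled, 1 median-centred, 5 with probe sets averaged, 14 without the dimmer pair and 17 when the remaining M5 arrays were also averaged, and 8 to 13 leaving out 1 array. Those below numbered 1, then 0 unscaled, 0 median-centred, 8 and 12 without the dimmer pair, and 1 to 4 leaving out 1 array. With 1 array left out, 10.2% to 19.5% of all genes lay above and 11.3% to 18.8% below. The combined setting was chosen after seeing the data. The members' median was 0.10, and -0.01 to 0.24 over all alternatives. Past the threshold came PRIM1, RRM2 and FEN1 without the dimmer pair and RFC2 with array weights. RRM2 stood at 0.06 over 6 arrays with probe sets averaged. MCM6 turned to 0.33 with probe sets averaged and PCNA to -0.02 without SW480 replicate 1 (up to 0.28 leaving out another array). No other of the 19 members recomputed under every alternative changed sign. RRM1 and TYMS, not among the 19, were each at 0.24 with probe sets averaged, against -0.14 and -0.02. The median of all probe sets moved to 0.06 unscaled and -0.06 centred. Between arrays of equal replicate number, deviations from the group mean correlated at 0.11, 0.02 and 0.07, and between the others at -0.11 to 0.08. The highest, 0.11, was that of the dimmer pair. Whether equal numbers pair the samples was not tested. With the replicate block 0 members were called (lowest limma adjusted p 0.189), and it moved no count of calls among members. At an unadjusted p under 0.05 limma with the block gave 8 members higher and 1 lower, against 5 and 1 without it. No share of all genes was taken at that level with the block. The causes were not tested. Without detection calls, low signals set no firm fold.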
